A study of Mus musculus with 4 samples.

Results

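Cytosolic ribosomal proteins are components of the ribosome, which makes nearly all cellular protein, and their genes were followed here in mouse osteoclast cultures with and without the transcription factor NFATc1. The genes were chosen by name alone: every probe set whose only platform symbol starts with Rpl or Rps and a digit, or is Rpsa, Rplp0, Rplp1 or Rplp2, leaving out the Rps6k kinases and Rps19bp genes. This rule found 49 of the 12393 genes named by a single symbol, measured by 101 of 22690 probe sets. They comprised 42 core genes (22 of the large and 20 of the small subunit), 6 paralogs (Rpl22l1, Rpl39l, Rpl3l, Rpl7l1, Rps27l and Rps4l) and 1 pseudogene, Rps15a-ps6. A further 102 probe sets carried a ribosomal protein symbol together with other symbols and named no gene here. As a result Rpl3, Rpl5, Rpl10, Rpl10l, Rpl36a, Rpl36al, Rplp1 and Rps27a were not analysed.

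Expression was measured with Affymetrix arrays on 2 wild-type and 2 NFATc1-deficient cultures of C57BL/6 origin. Wild-type cells were NFATc1 fl/fl MxCre- and deficient cells NFATc1 fl/fl MxCre+, so both groups carried the floxed alleles. Mx-Cre is driven by an interferon-inducible promoter that is not restricted to osteoclasts, and excision is induced with poly I:C. The sources used here do not give the age of the mice, the exons removed or any poly I:C treatment of the wild-type mice. Bone marrow precursors were sorted as ckit+ and cfms+ and negative for CD11b, CD3e and B220, plated at 20000 per well and kept for 3 days in M-CSF and RANKL. The series' design text names bone marrow macrophages as the source and calls the replicates biological. Replicate 1 of each genotype was a pool of 3 mice and replicate 2 a pool of 4 mice. With 2 arrays per group, a p-value sets a change against the spread between these pools, estimated partly from other probe sets.

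The deposited values are MAS5 signals on a linear scale. Array medians lay between 111.6 and 130.0 and trimmed means between 500.15 and 500.92, and Nfatc1 signal was 5433.6 and 6146.7 on the wild-type arrays against 3018.2 and 4097.9 on the deficient arrays (log2 change -0.71, SE 0.15, limma adjusted p = 0.0104). Changes below are deficient minus wild-type on the log2(signal + 23.3) scale, which understates the change of dim probe sets, and folds are ratios of mean signals. "Higher" and "lower" mean a limma adjusted p under 0.05 over all 13577 tested probe sets. All 7 osteoclast markers tested were lower (summed signal 43638 to 49299 wild-type and 19085 to 26175 deficient), and all 13 cell cycle markers were higher (21068 to 22431 against 38779 to 41923). Among granulocyte markers 3 of 8 were higher (5477 to 6057 against 7470 to 15612), and among macrophage markers 1 of 6 was higher and 2 were lower (23733 to 27239 against 19244 to 20239). Lymphoid, erythroid, progenitor and stromal markers were dim, and among their tested genes 1 (Il7r, log2 change 1.15) was higher, while Cd3e, Cd79a, Ms4a1, Hba-a1 and Alas2 were below the filter. The part of these shifts in the ribosomal protein values was not tested, and in bulk cultures fewer cells of a type and less RNA per cell cannot be told apart.

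As background, each ribosome contains 1 copy of nearly every core protein, and the genes are transcribed at high and coordinated rates. The small subunit reads the mRNA, and the large subunit joins amino acids. Most of these transcripts begin within a run of pyrimidines, the 5' terminal oligopyrimidine (TOP) motif, through which mTOR signalling and Larp1 adjust their translation together. Their output follows cell growth, and some members, such as Rplp0 and Rpl13a, are used as reference genes in expression assays.

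The longest pyrimidine run near an annotated start is shown for the 7 core genes with a probe set past the threshold, for the reference gene Rplp0 and for the paralog Rpl7l1. Sequences are from RefSeq (GRCm38.p6), on the gene's own strand, 5' to 3', and capitals mark the longest pyrimidine run within 50 bases of an annotated start.
Rps9, chr7:3704024-3704053, plus strand: caaccgccttgTCTCTCTTTgtctcgggcc
Rpl41, chr10:128549119-128549148, minus strand: cgccattaaatagcagtaggCCTCCCTCTC
Rps24, chr14:24490710-24490739, plus strand: gagcggTCCTCTTTTCCTCCTCTCCagctc
Rpl27, chr11:101442193-101442222, plus strand: gtcatcctcgCTCCTCCCTCCacacgccgg
Rpl12, chr2:32961732-32961761, plus strand: ggaggaggcaacggtgcaaCTTTCTTCggt
Rpl37, chr15:5116631-5116660, plus strand: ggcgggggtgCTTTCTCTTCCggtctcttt
Rps6, chr4:86857349-86857378, minus strand: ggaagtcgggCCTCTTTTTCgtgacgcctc
Rplp0, chr5:115559466-115559495, plus strand: aggaccgcctggTTCTCCTataaaaggcac
Rpl7l1, chr17:46782671-46782700, minus strand: cgtcgaggcgggCCTCTCTaccccgcccgg

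The runs of Rps9 and Rps6 span the annotated start, beginning at positions -6 and -1, where 1 is the first transcribed base. The other 7 runs lie away from it. Those of Rps24 (19 pyrimidines, the longest shown), Rpl27 and Rpl7l1 begin upstream at -37, -42 and -32, and those of Rplp0, Rpl37, Rpl12 and Rpl41 begin downstream at 12, 29, 40 and 41. Where a gene had several annotated starts, the one with the longest run was used, and the longest run need not be the one nearest that start. The Rpl41 run reaches the end of the searched stretch. For runs away from the annotated start, the positions therefore do not show whether the transcripts begin within a run. A RefSeq promoter window was matched for 37 of the 42 core genes and 5 of the 6 paralogs. A run of at least 8 pyrimidines on the sense strand within 50 bases of a start was present in 31 of the 37 core genes (83.8%), against 39.2% of 17492 protein-coding genes. On the antisense strand the share was 24.3% of the core genes against 40.3% of all genes. Rplp0 and Rpl7l1, with runs of 7, fell just short of this length.

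Other letters were searched on both strands of the window from 250 bases before to 50 after the start. CCGGAAG, the core bound by ETS factors such as GABP, was present in 51.4% of the 37 core genes against 12.9% of all genes. GGAAA, the NFAT core, was present in 86.5% against 63.7%, and any ETS site ending in these letters is counted with it. TATAAA stood in 13.5% against 14.8%, the E-box CACGTG bound by Myc in 10.8% against 8.91%, and AAGATGGC, the YY1 core, in 8.11% against 3.57%. These are letter matches and not measured binding sites.

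Most ribosomal protein genes differed little between genotypes. Of the 101 probe sets, 87 from 46 genes passed the filter on low signals, and 14 with mean signals of 4.2 to 61.0 were not tested. Those 14 included all probe sets of Rpl39l, Rpl3l and Rps15a-ps6. Of the 87 tested, 11 were higher, 1 was lower and 75 did not pass. The corresponding shares of all tested probe sets were 12.8% higher and 11.4% lower, so the 11 higher members (12.6%) were close to the array-wide share and the 1 lower member (1.15%) was below it. With quantile normalization 22 members (25.3%) were higher against 13.7% array-wide, so the share of higher members was then no longer close to it. With no filter (5.94% against 5.11%) and without the variance trend (6.9% against 7.29%) 6 members were higher. Both deficient arrays lay above both wild-type arrays for 33 members and below them for 4, where the array-wide shares were 34.4% and 28.8%. Leaving out 1 array leaves a single array in a group, and the number of calls then moved among the members and array-wide. The members' share of higher calls was well above the array-wide share without wild-type replicate 2. It was near or below that share when any other array was left out.

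With 1 probe set per gene, the brightest tested one, 4 of 46 genes were higher (Rpl12, Rpl37, Rps6 and Rpl7l1) and 0 were lower by limma. At an unadjusted p under 0.05, 6 were higher and 1 was lower, the latter being Rpl39. Over all 7798 genes handled this way, 12.9% were higher and 11.9% lower. The 2 deficient arrays lay above the wild-type arrays for 12 of the 46 genes and below for 3, against 34.3% and 29.7% of all genes. The median change of the 46 genes was 0.06, against 0.03 over all genes. That median was 0.14 without wild-type replicate 2 and -0.03 without wild-type replicate 1, so its direction rests on a single array. The number of higher genes was 9 with quantile normalization, 2 with no filter, without the variance trend or without deficient replicate 1, and 1 gene was lower without wild-type replicate 1 or without deficient replicate 2. By subunit, 2 of 22 large subunit genes were higher with a median of 0.04, and 1 of 20 small subunit genes was higher with a median of 0.06.

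**Figure D1:**
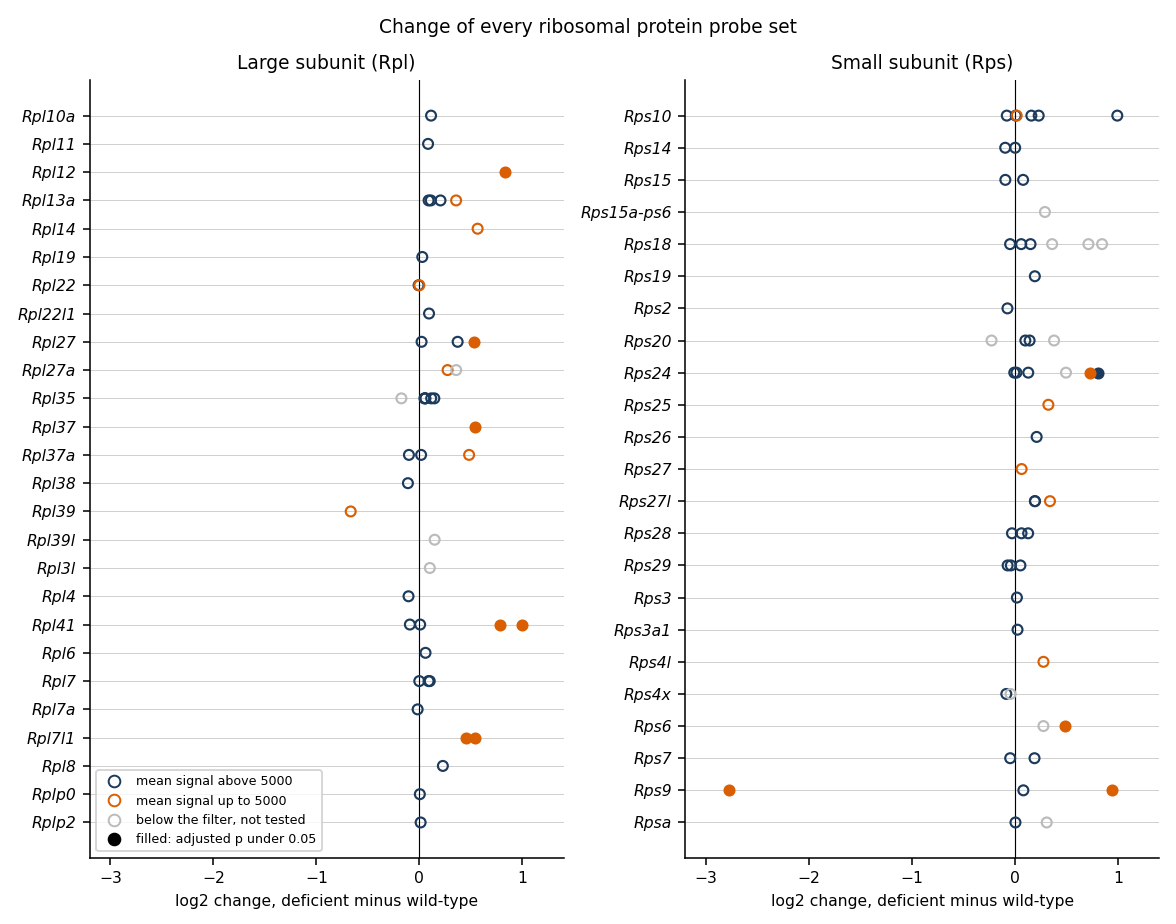
Each point is 1 probe set of a ribosomal protein gene, placed by its log2 change (deficient minus wild-type, horizontal axis) in the row of its gene, with the large subunit on the left and the small subunit on the right. Most points lie close to 0, and filled points mark the 11 higher probe sets and the 1 lower probe set, of Rps9 at -2.78.

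The changes differed between bright and dim probe sets. A probe set's signal reflects its probes as well as the transcript, so signals are used here only to sort probe sets, and the divisions at 5000 and 1000 were chosen after the values were seen. Of 65 members with a mean signal above 5000, 1 was higher and 0 were lower by limma, and at an unadjusted p under 0.05 these counts were 3 and 0. Their median change was 0.06, and 58 lay within 0.2 of 0. All 625 tested probe sets above 5000, these 65 among them, included 6.88% higher and 15.5% lower. The other probe sets above 5000 were less bright, with array medians of 7027 to 7925 against 10080 to 11607 for the members. These shares therefore do not show whether differences could be called at the members' signals. Of the 8 members between 1000 and 5000, 4 were higher and 1 lower (22.7% and 18.6% of all such probe sets). Of the 14 members at or below 1000, 6 were higher and 0 lower by limma (10.4% and 9.11%), with 7 and 1 at an unadjusted p under 0.05 and a median change of 0.48. Detection calls were not used here, so how far these dim probe sets stand above background is unknown. They include those of Rpl12, Rps6, Rpl41, Rps24 and Rps9 described below, and their folds are ratios of signals that may include background. Below 5000 both deficient arrays lay above both wild-type arrays for 15 of 22 members, against 34.8% of all tested probe sets there.

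**Figure D2:**
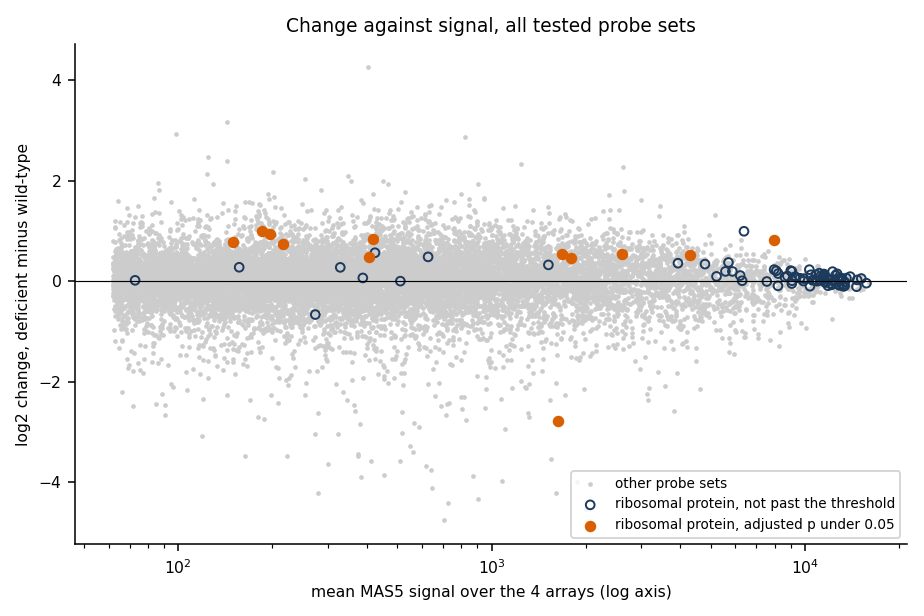
The log2 change (deficient minus wild-type) of every tested probe set is plotted against its mean MAS5 signal over the 4 arrays on a log axis, with ribosomal protein probe sets as circles. Of the 65 ribosomal protein probe sets above 5000, 58 lie within 0.2 of 0, and 11 of the 12 filled points lie above 0.

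For 36 genes the brightest probe set had a mean signal above 5000, and 0 of these passed in limma (0 also at an unadjusted p under 0.05). Their changes ran from -0.11 (Rpl38) to 0.23 (Rpl8), and 34 lay within 0.2 of 0. The 95% intervals for these genes reached from -0.42 to 0.53, which bounds the change that 2 arrays per group could have missed. Whether signals this high stay in proportion to transcript amount was not tested.

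Among these genes, the stalk protein Rplp0, which carries the flexible stalk that recruits elongation factors, had signals of 9627 and 12093 in wild-type and 10161 and 11539 in deficient cultures. The deficient values lay between the wild-type values, and the change was 0.01 (95% interval -0.31 to 0.32, limma adjusted p = 0.984). Rplp2, its acidic stalk partner, had a change of 0.01. Rpl4, which lines the exit tunnel, was one of the few members with both deficient arrays below both wild-type arrays (13518 and 13955 against 12523 and 13025), but its change of -0.10 did not pass (limma adjusted p = 0.519). Rpl8, near the peptidyl transferase centre, had the most positive change in this bright group, 0.23, with an adjusted p of 0.257 in limma. Changes were 0.11 for Rpl10a, of the mobile L1 stalk, 0.09 for Rpl11, which binds Mdm2 when ribosome assembly fails, and -0.11 for Rpl38, which is needed for axial patterning in mice. None of these passed. Rpl13a, a member of the interferon-gamma-activated GAIT complex, had 4 tested probe sets with changes of 0.09, 0.21, 0.11 and 0.36, and the last came closest with a limma adjusted p of 0.0781.

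The bright small subunit genes also did not pass. Rpsa, also known as the laminin receptor precursor, had signals of 11627 and 13253 in wild-type and 12344 and 12560 in deficient cultures, a change of 0.00 (95% interval -0.25 to 0.26). The groups overlapped. Rps3, which lies at the mRNA entry channel, had a change of 0.02, and the 2 probe sets of Rps14, whose loss underlies the anaemia of the 5q- syndrome, had changes of -0.10 and 0.00. Rps19 and Rps26, both mutated in Diamond-Blackfan anaemia, had changes of 0.19 and 0.21 with limma adjusted p-values of 0.23 and 0.257. For both, each deficient array was above each wild-type array, by a margin that the fit did not separate from replicate spread.

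Rpl12, Rpl37 and Rps6 were the core genes whose brightest probe set rose. Rpl12, at the base of the stalk, had signals of 311.4 and 273.6 in wild-type and 467.2 and 617.2 in deficient cultures. It rose 1.85-fold (log2 change 0.83, SE 0.17, limma adjusted p = 0.0103), and without deficient replicate 2 the adjusted p was 0.055. Rpl37, a zinc-binding protein of the large subunit, had signals of 2136 and 2087 against 2984 and 3195. The arrays of each genotype lay close together, and Rpl37 rose 1.46-fold (log2 change 0.54, SE 0.10, limma adjusted p = 0.00637), a call kept under all 12 alternative settings. Rps6, the substrate of the S6 kinases downstream of mTOR, had signals of 332.3 and 335.7 against 466.3 and 487.0. It rose 1.43-fold (log2 change 0.48, SE 0.14, limma adjusted p = 0.0386). The Rps6 call was lost without any 1 of the arrays: the adjusted p was 0.0829 and 0.0851 without wild-type replicates 1 and 2, and 0.125 and 0.141 without deficient replicates 1 and 2. It was also lost with median scaling (0.0541), no filter (0.0635) and no variance trend (0.0585). Each of the 3 genes had 1 tested probe set, so no further probe set was available to compare. Those of Rpl12 and Rps6 were dim, with mean signals of 417.35 and 405.32 against a median of 11289.7 over the 46 genes. In Rpl41, Rps24 and Rps9, described below, dim probe sets were higher while the brightest one did not pass. Whether the rises of Rpl12 and Rps6 hold for the whole gene was therefore not tested.

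Rpl39, which sits at the exit of the peptide tunnel, had the most negative value of the 46 genes. Its signals were 297.3 and 372.7 in wild-type and 139.3 and 286.8 in deficient cultures. The groups did not overlap, but the deficient arrays differed widely, and the change of -0.67 (SE 0.29) had a limma adjusted p of 0.132. Without deficient replicate 1 the change was -0.20 (adjusted p = 0.651), and without deficient replicate 2 it was -1.13 (adjusted p = 0.00788), so deficient replicate 1 sets its size. Without wild-type replicate 1 it was -0.82 (adjusted p = 0.0405), and with median scaling the adjusted p was 0.0111. Rpl14, a large subunit protein with signals of 357.8 and 313.6 against 598.6 and 429.2, had a change of 0.57 (limma adjusted p = 0.055). It passed without wild-type replicate 1 (adjusted p = 0.0283), without deficient replicate 2 (0.0152), with median scaling (0.0196) and with the stricter filter (0.0474). Rps25, known from internal ribosome entry, had signals of 1293 and 1400 against 1739 and 1642, a change of 0.32 that did not pass (limma adjusted p = 0.0623).

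Of 19 genes with at least 2 tested probe sets, 15 had the same call for all of them: 14 had none past the threshold, and 1, Rpl7l1, had both higher. The calls differed for Rps9, Rpl41, Rps24 and Rpl27, that is in 4 genes, and in 11 without wild-type replicate 2. Signs were shared in 6 genes and differed in 13, and the gap between the highest and lowest change was under 0.3 in 13 genes, with a median of 0.17. In 15 of the 19 the dimmest probe set had a more positive change than the brightest. Some of these differences were very small, as for Rpl35 (0.058 against 0.0577) and Rpl22 (0.0001 against -0.0068). Another 27 genes had a single tested probe set.

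Rps9, a small subunit protein that helps shape the mRNA entry channel, was the only gene with probe sets called in both directions. The brightest, 1433689_s_at, had signals of 8051 and 8711 in wild-type and 8430 and 9312 in deficient cultures (log2 change 0.08, limma adjusted p = 0.646), and the groups overlapped. The probe set 1434624_x_at had signals of 2583 and 3121 against 465.4 and 333.7. It fell by 2.78 on the log2 scale (SE 0.17, limma adjusted p = 8.19e-05), with a wild-type mean 7.14 times the deficient mean, and this call was kept under all 12 alternative settings (-3.00 to -2.52). The dimmest, 1426958_at, had signals of 125.1 and 129.8 against 241.7 and 290.9 and rose 2.09-fold (log2 change 0.94, SE 0.20, limma adjusted p = 0.0103). Without deficient replicate 2 its adjusted p was 0.0699. The 3 probe sets thus showed no call, a strong fall and a rise for the same symbol, and the files do not show which transcripts each one detects. The suffix _x_at marks a probe set with probes that can also match other sequences, and 40 of the 101 members carry it, beside 31 ending in _at, 28 in _a_at and 2 in _s_at.

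Rpl41, the smallest ribosomal protein, had 2 bright and 2 dim tested probe sets. The brightest, 1455578_x_at, had signals of 11635 and 12810 in wild-type and 11191 and 11725 in deficient cultures (log2 change -0.09, limma adjusted p = 0.593), and 1422623_x_at had a change of 0.01. Of the dim probe sets, 1454639_x_at had signals of 135.0 and 98.8 against 246.8 and 261.8 and rose 2.18-fold (log2 change 1.00, SE 0.21, limma adjusted p = 0.011). This call was kept under the 11 alternatives that tested it. The other, 1433530_at, had signals of 103.8 and 104.4 against 198.0 and 194.2 and rose by 0.78 (SE 0.21, limma adjusted p = 0.0256). It did not pass without deficient replicate 1 (adjusted p = 0.142), without deficient replicate 2 (0.0995) or with no filter (0.0797).

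Rps24, whose transcripts are alternatively spliced, had 5 tested probe sets, and 3 bright ones had changes of 0.01, -0.01 and 0.13. The probe set 1456628_x_at had signals of 7480 and 4361 in wild-type and 10477 and 9607 in deficient cultures. It rose by 0.81 (SE 0.21, limma adjusted p = 0.0259) and was the 1 higher member above 5000, with wild-type replicate 2 the lowest array. Without deficient replicate 1 its adjusted p was 0.0902. The dim 1455195_at, at 180.9 and 133.9 against 279.3 and 268.7, rose by 0.73 (SE 0.20, limma adjusted p = 0.0308). That call was lost without wild-type replicate 2 (0.106), deficient replicate 1 (0.142) or deficient replicate 2 (0.0853). With no filter neither probe set passed (0.0898 and 0.0818), and the first also did not pass without the variance trend (0.0995).

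Rpl27, a large subunit protein, had a bright probe set at 0.02 (1416099_at, limma adjusted p = 0.916), another at 0.37 (1453096_x_at, adjusted p = 0.0733) and 1 that passed. This one, 1448217_a_at, had signals of 3214 and 3836 in wild-type and 5078 and 5070 in deficient cultures and rose by 0.53 (SE 0.12, limma adjusted p = 0.0121). It did not pass without deficient replicate 1 (0.064), with median scaling (0.0838) or without the variance trend (0.0669). Rpl37a, another zinc-binding protein, had bright probe sets at 0.02 and -0.10 and a dim one, 1416218_x_at, at 389.2 and 670.8 against 742.5 and 707.4 (log2 change 0.48, limma adjusted p = 0.15). Rps7, Rps18, Rps15 and Rps28 had probe sets of differing sign, and all their tested changes lay between -0.09 and 0.19, with none past the threshold.

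Rps10, a small subunit protein mutated in some families with Diamond-Blackfan anaemia, showed how 1 array can set a value. The probe set 1439374_x_at had signals of 2378 and 6936 in wild-type and 8363 and 7874 in deficient cultures. Wild-type replicate 1 stood apart from the other 3 arrays, and the change of 0.99 (SE 0.38) did not pass (limma adjusted p = 0.0959). Without wild-type replicate 1 the change was 0.23 (adjusted p = 0.144), and without wild-type replicate 2 it was 1.76 (adjusted p = 3.66e-09). With median scaling the adjusted p was 0.000676. The other 5 tested probe sets of Rps10 had changes of -0.08, 0.16, 0.01, 0.23 and 0.02, and none passed.

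**Figure D3:**
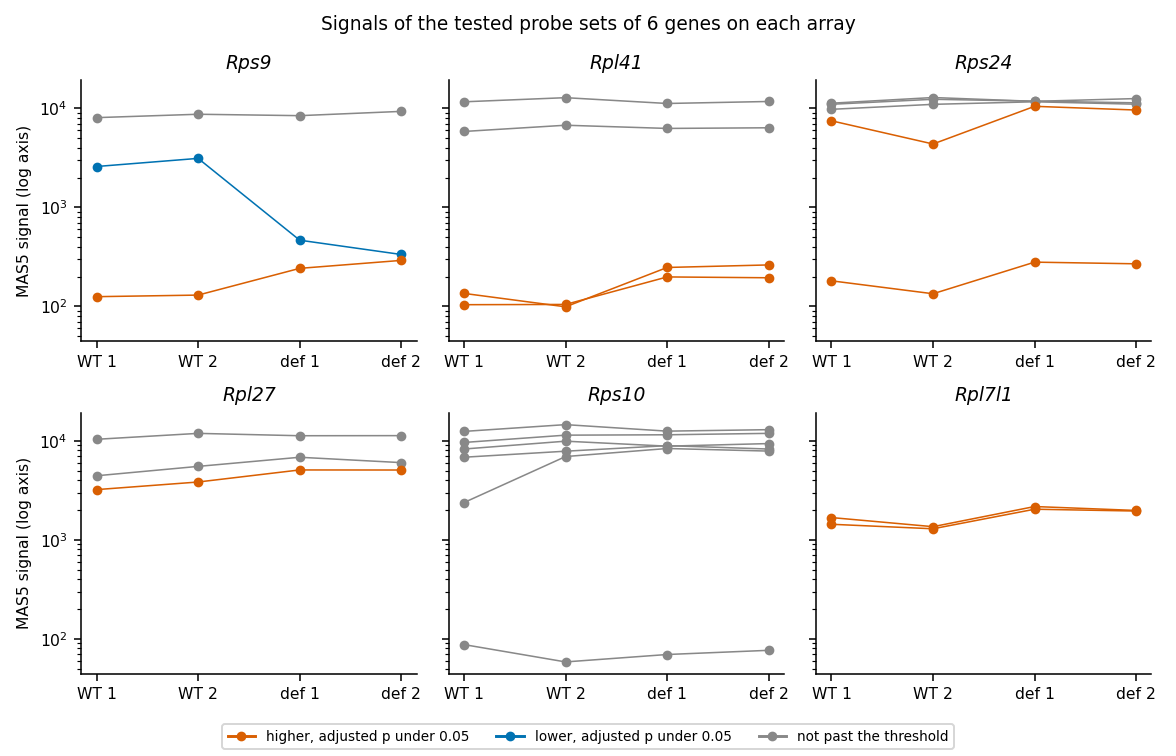
MAS5 signal (log axis) of each tested probe set of 6 genes on the wild-type (WT) and deficient (def) arrays, with 1 line per probe set coloured by its call. The Rps9 probe set that fell goes from 2583 and 3121 to 465.4 and 333.7 while the brightest Rps9 probe set stays between 8051 and 9312, and the Rps10 line with a single low point is at 2378 in wild-type replicate 1.

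The paralogs are close relatives of core genes, and 4 of 6 were tested at a median change of 0.23. Rpl7l1, related to a yeast factor of large subunit assembly, was the 1 gene whose tested probe sets were all higher. Its brighter probe set, 1426386_at, had signals of 1678 and 1357 in wild-type and 2168 and 1979 in deficient cultures and rose by 0.45 (SE 0.13, limma adjusted p = 0.0349). The other, 1452049_at, had signals of 1436 and 1293 against 2037 and 1953 and rose by 0.54 (SE 0.11, limma adjusted p = 0.00874). The first did not pass without wild-type replicate 2 (change 0.30, adjusted p = 0.158), without deficient replicate 1 (0.149), with median scaling (0.0927), no filter (0.0764) or no variance trend (0.115), and the second did not pass without the variance trend alone (0.0522). Rpl7, the core gene it resembles, had 3 probe sets at 0.09, -0.00 and 0.10, and the difference between Rpl7l1 and Rpl7 was not tested.

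Rpl22l1, which can replace Rpl22 in the ribosome, had signals of 4814 and 5289 against 5390 and 5388 (change 0.09), and Rpl22 itself had changes of -0.01 and 0.00. Rps27l, a p53-responsive relative of Rps27, had changes of 0.19, 0.19 and 0.34, of which the last had a limma adjusted p of 0.0643, and Rps27 had a change of 0.06. The X-linked Rps4x had signals of 12681 and 13873 against 12619 and 12400 (change -0.08), and its paralog Rps4l had a change of 0.28 with overlapping groups. Rpl39l and Rpl3l, paralogs best known from testis and muscle, were below the filter with mean signals of 61.0 and 25.5.

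The arrays did not contribute equally to these values. Among the 65 bright members, wild-type replicate 1 was the lowest array in 56 (86.2%), while among 560 other probe sets above 5000 it was lowest in 247 (44.1%). Wild-type replicate 2 was the highest array in 34 of the 65 (52.3%). It also had the highest median for the other probe sets above 5000, at 7925 against 7027 to 7182 on the remaining arrays. The median signal of the bright members was 10080 and 11607 on the wild-type arrays and 11191 and 11336 on the deficient arrays, so both deficient medians lay between the wild-type ones. The median change of the bright members between the replicate 1 arrays was 0.13, and between the replicate 2 arrays it was -0.03. The median gap between the wild-type arrays was 0.20, larger than the median change of 0.06, and that between the deficient arrays was 0.05. The cause of the offset was not tested. Control probe sets for 18S ribosomal RNA overlapped between genotypes: the 3' set read 313.1 and 186.5 in wild-type and 264.6 and 299.4 in deficient cultures, and the 5' and middle sets also overlapped. The 18 spike-in control probe sets, for bacterial and phage transcripts added during array processing, all had positive changes, from 0.12 to 0.47 with a median of 0.25. Both deficient arrays lay above both wild-type arrays in 12 of them, and wild-type replicate 1 was the lowest array in 16, as in most bright members. The highest array differed: it was deficient replicate 2 in every spike-in probe set but in only 12 of the 65 bright members. Several of the 18 read the same transcript. The median change of the 46 ribosomal protein genes, 0.06, was smaller than any of the spike-in changes. The part of the spike-in offset in the ribosomal protein values was not tested.

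Other genes of protein synthesis are read against 12.9% higher and 11.9% lower among all genes. Of 31 tested initiation factors, 3 were higher (9.68%) and 1 was lower (3.23%), neither above those shares, with a median change of 0.12. Eif1a, which promotes scanning, rose by 0.48 (limma adjusted p = 0.0423). Eif3m, a subunit of the eIF3 scaffold, and Eif6, which keeps immature large subunits from joining, both rose by 0.38 (0.0328 and 0.0287). Eif2b4, of the exchange factor for eIF2, fell by 0.40 (0.037). Of 9 elongation and termination factors, 3 were higher (33.3%) and 0 lower in limma (4 and 0 at an unadjusted p under 0.05), with a median of 0.13. They were Eef1e1, of the multisynthetase complex (0.59, limma adjusted p = 0.00485), the release factor Gspt1 (0.48, 0.0106) and the ribosome recycling factor Abce1 (0.48, 0.0153). The abundant elongation factors Eef1a1 and Eef2 had changes of -0.17 and 0.01 (limma adjusted p = 0.36 and 0.944). Eif1a and Abce1 each had another tested probe set of the same sign that did not pass. Gspt1 had 1 more probe set that was higher (0.36) and 1 that did not pass (0.32). Some genes not counted as higher had dimmer probe sets that were, among them Eif3e (0.33 and 0.48) and Pabpc1 (0.66). Of the 4 ribosome-associated or fusion proteins tested, 0 passed in limma, also at an unadjusted p under 0.05: the changes were 0.07 for Fau, which is cleaved to release a small subunit protein, 0.12 for Naca, 0.22 for Btf3 and -0.11 for Tpt1.

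Of 15 tested regulators of translation and of TOP mRNAs, 3 were higher (20%, against 12.9% of all genes) and 2 lower (13.3%, against 11.9%), with a median of -0.01. Myc, which drives ribosome production, had signals of 777.5 and 763.1 in wild-type and 1685 and 1494 in deficient cultures and rose by 1.02 (SE 0.12, limma adjusted p = 0.000744). Its relative Mycl, at 423.1 and 329.6 against 870.9 and 881.0, rose by 1.18 (SE 0.15, limma adjusted p = 0.0012), and its other tested probe sets were also higher. Rheb, the activator of mTOR, rose by 0.38 (limma adjusted p = 0.0352). Eif4ebp1, the translation repressor that mTOR inactivates, had signals of 4431 and 4520 against 2960 and 3227 and fell by 0.53 (SE 0.10, limma adjusted p = 0.00729), while its other tested probe sets had negative changes that did not pass. Eif2ak3, the stress kinase PERK, fell by 0.43 (limma adjusted p = 0.0399), and Mtor and Larp1 had changes of -0.01 and 0.11. Over these 4 lists 9 of 59 genes were higher (15.3%, against 12.9% of all genes) and 3 lower (5.08%, against 11.9%), and without deficient replicate 1 the counts were 4 and 0, while without wild-type replicate 2 there was 1 lower gene. With median scaling they were 3 and 0, and with no filter 5 and 1.

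The cytosolic ribosomal protein genes stood beside 2 other groups with different counts. Of 47 tested ribosome biogenesis genes, which make ribosomal RNA and assemble subunits, 27 were higher (57.4%, against 12.9% of all genes) and 1 (Polr1d) was lower, with a median change of 0.48. Examples were Nop58, at 479.9 and 450.6 in wild-type against 1122 and 1080 in deficient cultures (log2 change 1.20, SE 0.12), and Nop56, at 920.9 and 889.6 against 2003 and 1680 (1.00, SE 0.12), both core proteins of the particles that methylate ribosomal RNA. The mitochondrial ribosomal protein group was chosen by name alone, as 74 genes whose symbols start with Mrpl or Mrps and a digit. Whether each codes for a protein of that ribosome was not examined. By the brightest probe set in limma, 0 were higher and 5 were lower (6.76%, against 11.9% of all genes). At an unadjusted p under 0.05 these counts were 2 and 10. The median was -0.03, and the lowest values were those of Mrps36 (-0.94), Mrps18a (-0.65) and Mrpl4 (-0.63). The 46 cytosolic ribosomal protein genes, with 4 higher, 0 lower and a median of 0.06, lay nearer to the mitochondrial group than to the biogenesis group in median. The difference between these groups was not tested.

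**Figure D4:**
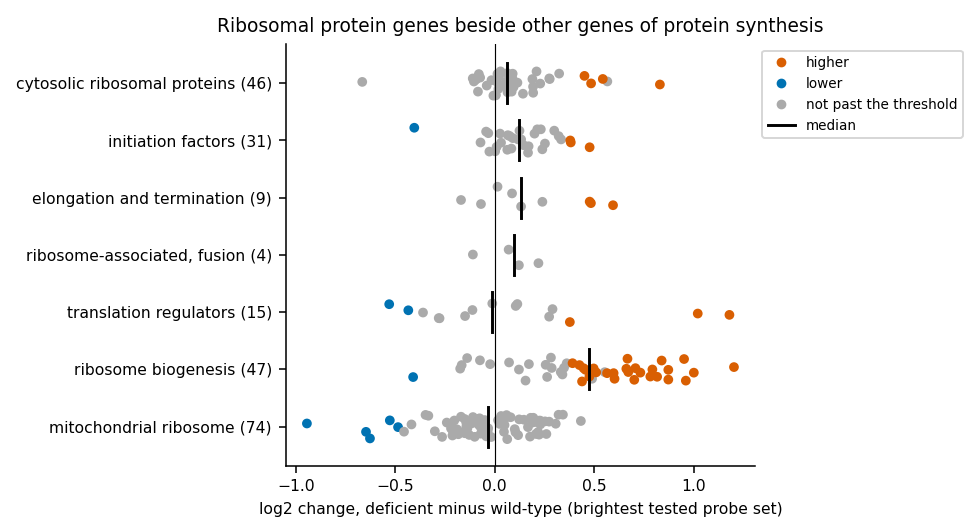
Each point is 1 gene, placed by the log2 change (deficient minus wild-type) of its brightest tested probe set, with a black bar at the median of each list and the number of genes in brackets. The median is 0.06 for the 46 cytosolic ribosomal protein genes, 0.48 for the 47 ribosome biogenesis genes and -0.03 for the 74 genes named as mitochondrial ribosomal proteins.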

How the data were processed

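Probe set intensities were made by the authors with MAS5 on a linear scale, per the submitters' processing notes. The sources used here give no version, scaling target or detection calls. MAS5 gives 1 signal per probe set and array and scales each array by 1 factor. Depth does not apply to arrays, and their number (2 per group) limits the precision. Gene names came from the platform annotation. After 64 control probe sets were left out, those with a mean signal above the 40th percentile (61.95) were tested with a pseudocount of 23.3, the 25th percentile of all values, on the log2 scale in limma 3.58.1 in R 4.3.3 (lmFit, eBayes with an intensity trend, two-sided, Benjamini-Hochberg over all 13577 probe sets, threshold 0.05). The fit was tested on simulated data. Named genes were those whose brightest probe set passed, the 10 with most discordant probe sets, paralog pairs, reference members and up to 4 leading members of each list; Rpl4, Rpl8, Rpl14, Rps25, Eef1a1, Eef2, Rheb, Mtor, Larp1 and Polr1d, outside this rule, were chosen after their values were seen. Members and lists were chosen with earlier results of these data known. Promoters came from RefSeq. Alternatives covered scaling, pseudocount, filter, variance trend, replicate number, probe set choice and single arrays.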

Additional observations from a re-analysis of the deposited data

How the results depend on the processing

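With all arrays and the settings given, 11 member probe sets were higher and 1 lower, 4 genes higher and 0 lower, 4 genes had probe sets with different calls, and 9 of the 59 translation genes were higher and 3 lower. No named value reversed its sign while called. With median scaling 2 probe sets and 1 gene were lower, and 3 translation genes were higher and 0 lower. With quantile normalization 22 probe sets and 9 genes were higher, and 9 genes had different calls. With no filter 6 probe sets and 2 genes were higher, and 5 translation genes were higher and 1 lower. Without the variance trend 6 probe sets and 2 genes were higher, and 3 translation genes were higher and 0 lower. With the mean of all tested probe sets of a gene, 8 of 46 genes were higher and 1 lower, and no share over all genes was computed for that fit. Of the 20 tested member probe sets ending in plain _at, 7 were higher (35%) and 0 lower, against 12.8% and 11.4% of all tested probe sets. The share of higher members was thus above the array-wide share under this choice. These 20 had a median mean signal of 421.1, and the share among all probe sets ending in plain _at was not computed. Leaving out 1 array at a time gave 5 to 19 probe sets higher and 1 to 3 lower, 2 to 5 genes higher and 0 to 1 lower, 3 to 11 genes with different calls, a median change of -0.03 to 0.14, and 4 to 9 translation genes higher and 0 to 2 lower. The causes were not tested. With the replicate number as a block, 17 probe sets were higher (19.5%, against 15.1% of all tested) and 2 lower (2.3%, against 13.3%). In that fit 1 gene was lower and 7 genes had different calls. The labels name no shared batch for a number, and deviations of same-numbered arrays correlated at 0.13 over 13577 probe sets, so the numbers were not taken as pairs. Uncalled members were followed for the brightest probe set of each named gene and all tested ones of Rps10, Rpl37a, Rpl27, Rpl14, Rpl13a, Rps25 and Rps27l. Of these 44 probe sets, 15 passed under at least 1 alternative, counting fits that left a single array in a group. The share of all uncalled probe sets that did so was not computed, so this count says nothing particular about the members.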

Other observations

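Probe sets that carry a ribosomal protein symbol among several symbols gave values like those of the members. Of 102 such probe sets 95 were tested, and 10 were higher (10.5%, against 12.8% of all tested probe sets) and 0 lower in limma (20 and 0 at an unadjusted p under 0.05), with a median change of 0.09. Above a mean signal of 5000 there were 72, of which 4 were higher (5.56%, against 6.88% of all at that brightness), with a median of 0.06, and at or below 5000 there were 23, of which 6 were higher (26.1%, against 13.1%), with a median of 0.35. Wild-type replicate 1 was the lowest array in 61 of the 72 bright ones (84.7%). No gene is named from them, because each matches transcripts of several genes.

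Among the 14 member probe sets below the filter, 3 of Rps18 (1421837_at, 1450390_x_at and 1421838_at) had both deficient arrays above both wild-type arrays, at mean signals of 48.5, 41.7 and 27.1. The same held for a probe set of Rpl3l, of Rps20 and of Rps24, so it was not particular to Rps18. Of all tested probe sets 34.4% had this pattern, and the share among all those below the filter was not computed. The 3 tested probe sets of Rps18, all bright, had changes of 0.06, -0.05 and 0.15. The dim ones were not tested, and whether they stand above background is not known.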
